A study of Mus musculus with 22 samples.

Results

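Primordial germ cells (PGCs) are the embryonic cells that give rise to eggs and sperm. The members here are all genes of 4 RNA-seq libraries of wild-type mouse PGCs, 2 of female E12.5 and 2 of E10.5, out of 22 libraries in the series. Of 37991 genes in the count table, 17567 had enough counts to be tested. Both groups came from 1 cross, in which both parents were heterozygous for Tet1 and carried GOF18ΔPE-EGFP, a green fluorescent reporter driven by Pou5f1 sequences that lack the proximal enhancer. E12.5 female Tet1-WT is the group of sorted PGCs of female embryos with an intact Tet1 gene, taken at E12.5. E10.5 Tet1-WT is the group of the same genotype taken at E10.5, before the embryos were separated by sex. Each library held polyA RNA pooled from several embryos of 1 genotype and stage, so an SD over n = 2 is a spread between pools. 4 further groups of 2 libraries served for comparison. E12.5 female Tet1-KO and E10.5 Tet1-KO came from Tet1-KO embryos of the same cross, and E12.5 male Tet1-WT held male PGCs of the same cross. The E10.5 MF1 cross held wild-type PGCs of MF1 females mated with GOF18ΔPE-EGFP males, also not separated by sex.

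Between these stages PGCs finish their migration, settle in the genital ridge and lose most of the methylation of their DNA. A set of germline genes with methylated CpG-rich promoters in somatic cells is known to become active in this window, among them genes of meiosis and of the piRNA pathway, which silences transposons. In the ovary, retinoic acid and BMP signals then start meiosis, with Stra8 among the first genes to respond.

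Total counts (M for mega) were 16.32 and 18.55 M in E12.5 female Tet1-WT and 16.5 and 18.38 M in E10.5 Tet1-WT. Log CPM (counts scaled to a library total of 1 M) correlated between the replicates of a group at 0.944 and 0.939 across genes, which are not independent. The sex label held in E12.5 females: Ddx3y and Kdm5d, on the Y chromosome, had 0 counts in both libraries. The E10.5 Tet1-WT pools held 37.6 and 67.1 CPM of Ddx3y, so they contained male embryos, and sex composition and stage cannot be told apart for genes that differ between the sexes. Tet1, the gene varied in the cross, had 179 and 226 CPM in E12.5 female Tet1-WT and 134 and 76.8 CPM in E10.5 Tet1-WT. The groups did not overlap, but the difference of 0.94 ± 0.36 (log2, SE) did not pass the test (adjusted p = 0.1).

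The 2 E10.5 Tet1-WT libraries stood apart from the other E10.5 libraries of the series before any comparison with E12.5. Summed levels are over all members of a list in the table, tested or not. The sum of 15 germ cell identity genes was 7456 and 7568 CPM in E12.5 female Tet1-WT, against 2226 and 1723 CPM in E10.5 Tet1-WT. The list includes Dazl and Ddx4, whose rise between the stages is part of that gap. In E10.5 Tet1-KO the sum was 7421 and 4754 CPM, and in the E10.5 MF1 cross 8124 and 9607 CPM. The sum of 18 markers of gonadal and mesonephric mesenchyme ran the other way. It was 1223 and 1640 CPM in E12.5 female Tet1-WT and 2602 and 3180 CPM in E10.5 Tet1-WT, against 863 and 1542 CPM in E10.5 Tet1-KO and 662 and 342 CPM in the MF1 cross. In E12.5 male Tet1-WT it was 2668 and 1778 CPM. Fewer cells of a type and less RNA per cell cannot be told apart in such pools. Because of the shift between E10.5 groups, the results below are also given with the MF1 cross as the E10.5 group. That cross differed in strain, RNA kit and depth (59.42 and 66.92 M counts), and it shares the E12.5 libraries with the first comparison, so agreement between both is no independent support.

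**Figure D1:**
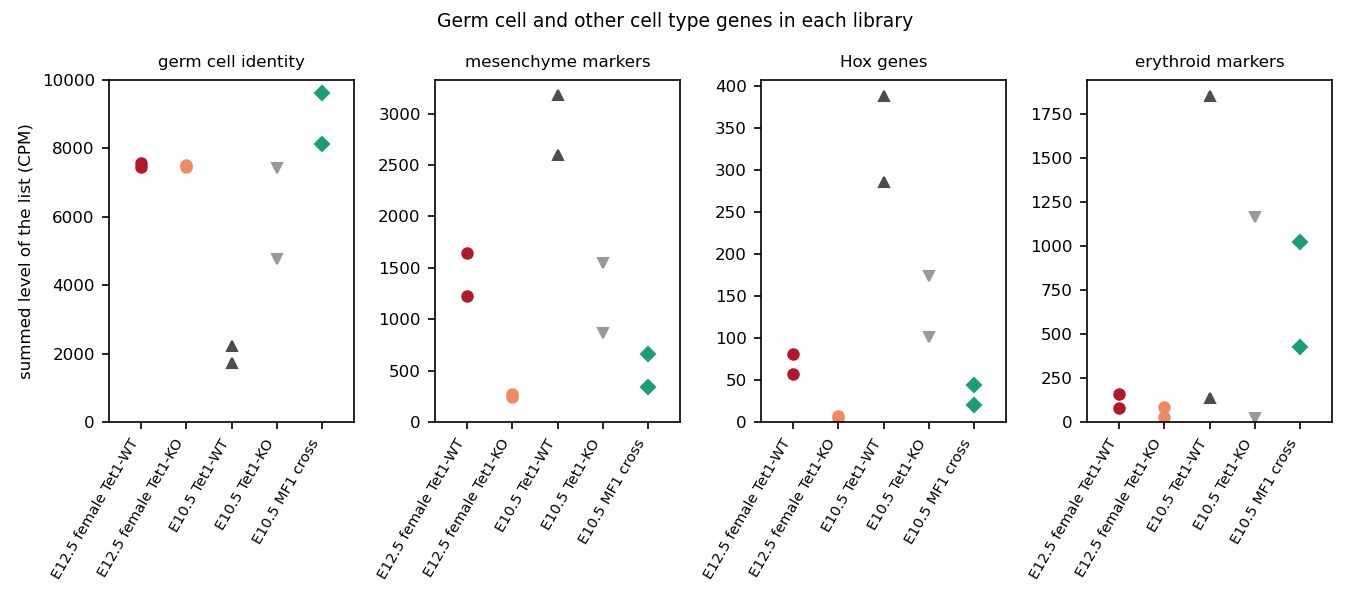
Summed CPM of 4 gene lists in each library (1 point per library, linear axis from 0): germ cell identity, mesenchyme markers, Hox genes and erythroid markers. The E10.5 Tet1-WT libraries are lowest in germ cell identity (2226 and 1723 CPM) and highest in mesenchyme markers (2602 and 3180 CPM) of the 5 groups plotted, which are E12.5 female Tet1-WT and Tet1-KO, E10.5 Tet1-WT and Tet1-KO, and the MF1 cross.

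A gene was called at an adjusted p under 0.05 in edgeR's quasi-likelihood test, adjusted by Benjamini-Hochberg over all 17567 genes. In E12.5 female Tet1-WT against E10.5 Tet1-WT, 2396 genes were called (13.6% of those tested), 1547 higher (8.81%) and 849 lower (4.83%). The CPM of both groups did not overlap for 5079 genes that were higher (28.9%) and 4566 that were lower (26%) at E12.5. The number of genes called was 1911 without E12.5 replicate 1, 1388 without E12.5 replicate 2, 1480 without E10.5 replicate 1 and 1269 without E10.5 replicate 2. Of the genes called higher, 550 were also called with each of the 4 libraries left out in turn, as were 228 of those called lower. With the MF1 cross as the E10.5 group, 404 of the 1547 genes were again called higher (26.1%), 1089 were not called and 54 were called lower. Of the 849 genes called lower, 212 were again called lower (25%), 551 were not called and 86 were called higher. Of the 18008 genes tested with the MF1 cross, 1812 were called higher (10.1%) and 1425 lower (7.91%), which is the background for each count of list members given with it. A fit with the mesenchyme marker sum as a covariate was also run, and over all genes it called 423 higher and 164 lower. That sum differs between the groups compared, so the covariate can take up part of the stage difference.

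Germline genes known to be silenced by DNA methylation in other cells had the highest median of the gene lists examined against E10.5 Tet1-WT. Of 28 such genes tested, 23 rose (82.1%) and none fell, beside 8.81% higher and 4.83% lower over all genes. The median log2 fold change was 3.99 over all 28, against 0.03 over all genes. With the 3 members that had no count in a group set to their bound, it was 3.96. Leaving out a library gave 22 to 24 rises, and the mesenchyme covariate 18. With the MF1 cross as the E10.5 group 17 rose, all of them among the 23, and the median was 2.1. That was below the medians of the mesenchyme (3.44) and coelomic epithelium (3.19) markers with the MF1 cross. The summed level of the list was 6045 and 4885 CPM in E12.5 female Tet1-WT, 162 and 262 CPM in E10.5 Tet1-WT and 865 and 1121 CPM in the MF1 cross. Taf7l, D1Pas1, Ctcfl, Dpep3 and Dnmt3l were the members that did not pass. The list was chosen with earlier results of these data known, so its direction is a description.

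The promoters of 4 of these genes are shown because promoter methylation is what the list is defined by, although methylation was not analysed here. They run from 250 bases before the start of transcription to 50 bases after it, 5′ to 3′ on the gene's strand, from RefSeq on GRCm38.p6. Capitals mark CACGTG, the E-box bound by MAX and its partners, and TCCCGC or its reverse complement, a core of E2F sites. MAX with MGA, and E2F6, are subunits of PRC1.6, a repressor of germline genes in somatic cells.
Sycp3, chr10:88459337-88459636, plus strand: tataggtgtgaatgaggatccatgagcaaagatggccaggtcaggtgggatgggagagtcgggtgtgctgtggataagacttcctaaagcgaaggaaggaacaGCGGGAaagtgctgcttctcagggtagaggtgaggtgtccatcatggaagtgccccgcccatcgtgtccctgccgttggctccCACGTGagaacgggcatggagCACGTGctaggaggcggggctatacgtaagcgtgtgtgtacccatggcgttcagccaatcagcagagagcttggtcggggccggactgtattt
Tex19.1, chr11:121145893-121146192, plus strand: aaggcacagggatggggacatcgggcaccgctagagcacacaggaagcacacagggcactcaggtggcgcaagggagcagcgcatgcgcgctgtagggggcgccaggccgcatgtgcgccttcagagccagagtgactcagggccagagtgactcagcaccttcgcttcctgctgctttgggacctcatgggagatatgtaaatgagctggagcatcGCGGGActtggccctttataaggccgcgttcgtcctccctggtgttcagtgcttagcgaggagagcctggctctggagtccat
Tuba3a, chr6:125286032-125286331, minus strand: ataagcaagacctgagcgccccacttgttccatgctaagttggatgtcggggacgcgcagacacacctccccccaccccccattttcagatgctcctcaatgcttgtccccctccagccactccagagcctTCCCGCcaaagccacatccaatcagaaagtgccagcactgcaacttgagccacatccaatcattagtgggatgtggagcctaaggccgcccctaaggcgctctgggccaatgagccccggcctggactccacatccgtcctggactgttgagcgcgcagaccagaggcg
Dazl, chr17:50293571-50293870, minus strand: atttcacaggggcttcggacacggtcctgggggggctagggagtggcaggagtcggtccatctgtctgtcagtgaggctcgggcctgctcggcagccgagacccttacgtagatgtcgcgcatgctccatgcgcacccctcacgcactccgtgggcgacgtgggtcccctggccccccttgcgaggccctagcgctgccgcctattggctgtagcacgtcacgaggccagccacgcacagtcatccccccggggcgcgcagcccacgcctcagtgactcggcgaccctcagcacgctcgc
The Sycp3 promoter held both motifs, those of Tex19.1 and Tuba3a held only the E2F core, and that of Dazl held neither, with 28 CpG dinucleotides against 12 to 16 in the other three. Among the 24 genes of the list with a promoter in the table, 13 had CACGTG in at least 1 promoter (54.2%), on either strand. This compares with 11.2% of the 12251 tested genes with a promoter, 13.8% of the 1171 genes called higher and 11.5% of the 681 genes called lower. TCCCGC was found in 12 of the 24 genes (50%) and in 37.4% of the tested genes. The motifs do not overlap in the promoters shown, and a match describes letters, not a bound site.

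Dazl, an RNA-binding protein that licenses germ cells for sexual differentiation, had 2067 and 1164 CPM in E12.5 female Tet1-WT, against 4.58 and 18.9 CPM in E10.5 Tet1-WT. It rose by 7.10 ± 0.53 (log2, SE; edgeR adjusted p = 5.81e-07), and by 5.25 against the MF1 cross, which held 46.7 and 36.7 CPM. Ddx4, the germ cell RNA helicase Vasa, had 655 and 648 CPM, against 11.6 and 42.1 CPM in E10.5 Tet1-WT (log2 fold change 4.60 ± 0.40, edgeR adjusted p = 2.98e-06). Dazl was thus low in both E10.5 groups, and Ddx4 was also called higher against the MF1 cross. Neither gene overlapped between the stages in any library. Tuba3a, a testis-type alpha-tubulin, had 440 and 395 CPM in E12.5 female Tet1-WT and 4.91 and 5.35 CPM in E10.5 Tet1-WT, a rise of 6.34 ± 0.34. Its near-identical copy Tuba3b had 28.8 and 24.2 CPM at E12.5 and no count in E10.5 Tet1-WT, at least 160-fold higher with 3 counts per library as the floor. The gap was smaller with the MF1 cross, which held 6.15 and 3.59 CPM of Tuba3b and 28.3 and 62 CPM of Tuba3a. How the counting split reads between these copies is uncertain. Tex19.1, a germ cell factor that restrains transposons, had 419 and 420 CPM in E12.5 female Tet1-WT, against 37.1 and 42.7 CPM in E10.5 Tet1-WT and 197 and 177 CPM in the MF1 cross. Its rise of 3.39 ± 0.19 shrank to 1.14 with the MF1 cross, the smallest such value among the genes named in this group, and still passed (edgeR adjusted p = 0.000714).

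**Figure D2:**
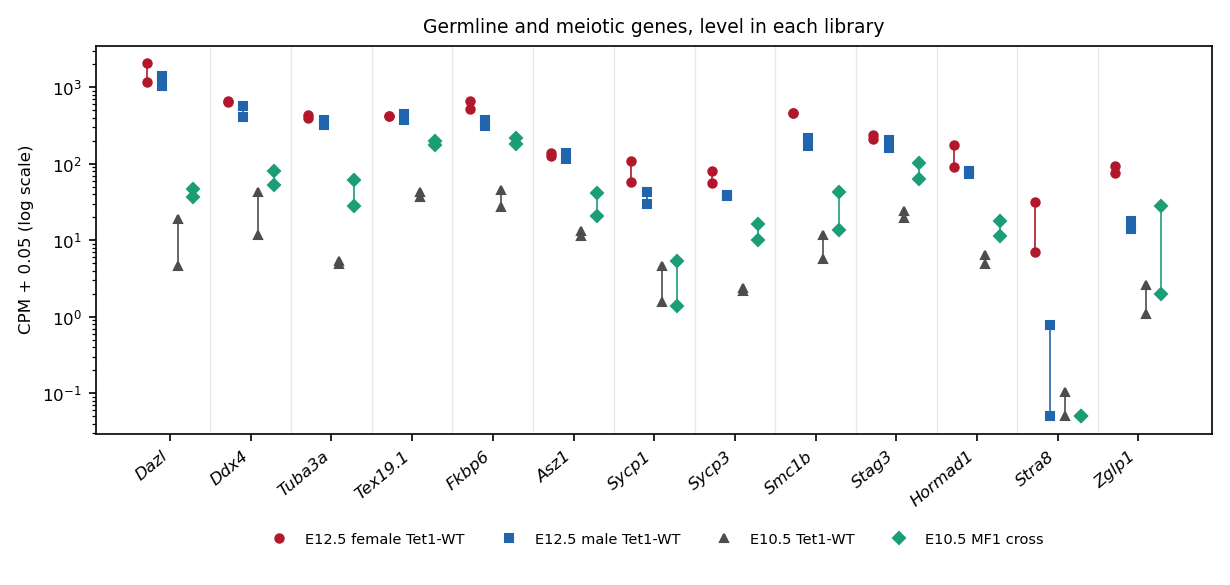
Level of 13 germline and meiotic genes in each library (CPM + 0.05, log axis), with 2 points per group joined by a line. For Dazl, Ddx4, Tuba3a, Sycp3 and Smc1b the E12.5 female libraries lie above both E10.5 groups, and Stra8 reaches 31.3 and 6.94 CPM in E12.5 females, against at most 0.726 CPM in the other 3 groups plotted, which are E12.5 males, E10.5 Tet1-WT and the MF1 cross.

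Many genes of the piRNA pathway rose, at 79.2% of those tested beside 8.81% over all genes. Among the rises, 9 also stand in the germline list above. Of 24 tested, 19 were called higher and none lower (17 to 19 without 1 library, 14 with limma voom and 13 with the mesenchyme covariate), with a median log2 fold change of 3.57, or 3.35 with members at 0 in a group set to their bound. With the MF1 cross as the E10.5 group, 12 of the same 19 were called higher and the median was 1.8. Fkbp6, a cochaperone needed for piRNA loading, had 514 and 658 CPM in E12.5 female Tet1-WT, against 27.4 and 44.9 CPM in E10.5 Tet1-WT (log2 fold change 4.02 ± 0.25). Asz1, a nuage and mitochondrial scaffold, had 139 and 126 CPM, against 11.2 and 13.1 CPM in E10.5 Tet1-WT (3.45 ± 0.23). Gpat2, an outer mitochondrial membrane protein of piRNA biogenesis, had 111 and 104 CPM, against 10.7 and 4.16 CPM in E10.5 Tet1-WT (3.86 ± 0.36). All these genes also passed against the MF1 cross, by 1.53, 2.08 and 2.21 on the log2 scale in that order. Mov10l1, the helicase that starts piRNA processing, was uneven at E10.5. It had 147 and 175 CPM in E12.5 female Tet1-WT, against 0.0565 and 12.3 CPM in E10.5 Tet1-WT (4.69 ± 0.85, edgeR adjusted p = 0.00191). Piwil4, the nuclear PIWI protein of fetal male germ cells, was low at both stages, with 4.42 and 4.31 CPM at E12.5 and 0 and 0.108 CPM in E10.5 Tet1-WT, and was called higher (edgeR adjusted p = 0.000859). Mael, a nuage protein, had 88.2 and 39.4 CPM in E12.5 female Tet1-WT, against 3.16 and 1.84 CPM in E10.5 Tet1-WT (4.67 ± 0.75), and did not pass against the MF1 cross (3.37, edgeR adjusted p = 0.066), whose libraries held 0 and 12.1 CPM. Piwil1, Tdrd6, Henmt1, Ddx25 and Tdrd3 were not called with either E10.5 group.

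Many genes of meiotic prophase rose, at 63.9% of those tested beside 8.81% over all genes. Among the rises, 5 (Hormad1, Hsf2bp, Sycp1, Sycp3 and Tex11) also stand in the germline list. Counting each gene once, the germline, piRNA and meiotic lists held 74 tested genes, of which 51 rose. Of 36 tested, 23 rose and none fell (19 to 20 without 1 library), with a median log2 fold change of 3.3, or 3.25 with members at 0 in a group set to their bound. With the mesenchyme covariate 13 rose and the median was 2.09. With the MF1 cross 16 rose, 14 of them among the 23. Of the meiotic cohesin subunits in the list, Smc1b and Stag3 rose, and Rec8 and Rad21l did not pass. Smc1b had 455 and 461 CPM in E12.5 female Tet1-WT, against 5.71 and 11.7 CPM in E10.5 Tet1-WT (log2 fold change 5.72 ± 0.31, edgeR adjusted p = 3.36e-08). Stag3 had 212 and 238 CPM, against 19.5 and 24.4 CPM in E10.5 Tet1-WT (3.36 ± 0.21). Components of the synaptonemal complex, which joins homologous chromosomes, also rose. Sycp3, of the lateral element, had 79.7 and 56.3 CPM, against 2.32 and 2.11 CPM in E10.5 Tet1-WT (4.94 ± 0.29). Sycp1, of the transverse filament, had 107 and 58.5 CPM, against 1.53 and 4.59 CPM in E10.5 Tet1-WT (4.75 ± 0.42). Syce1, of the central element, had 125 and 126 CPM, against 8.53 and 11.3 CPM in E10.5 Tet1-WT (3.66 ± 0.28). The HORMA domain genes that mark unsynapsed axes followed: Hormad1 had 178 and 90.1 CPM, against 4.91 and 6.37 CPM in E10.5 Tet1-WT (4.57 ± 0.48). Hormad2 had 55.6 and 41.1 CPM, against 3.95 and 6.32 CPM in E10.5 Tet1-WT and 18.6 and 22.3 CPM in the MF1 cross. Ccdc36, the older name of Iho1, a partner of HORMAD1 in break formation, had 41.8 and 30.9 CPM at E12.5 and 0 and 0.324 CPM in E10.5 Tet1-WT (edgeR adjusted p = 0.000178), and did not pass against the MF1 cross (1.63, edgeR adjusted p = 0.11). The members that did not pass included Sycp2, Rec8, Rad21l, Mei4, Msh4, Msh5, Prdm9 and Terb1.

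The switch into meiosis was measured by 20 genes of meiotic entry and retinoic acid handling. Of these 4 rose and 4 fell (20% each, beside 8.81% and 4.83% over all genes). The counts were 2 and 1 with the mesenchyme covariate and 5 and 1 with the MF1 cross. The 4 rises were Stra8, Gm4969, Meioc and Zglp1. Stra8, the gatekeeper of meiotic initiation, had 31.3 and 6.94 CPM in E12.5 female Tet1-WT and 0 and 0.054 CPM in E10.5 Tet1-WT (edgeR adjusted p = 0.000291), with a wide gap between the E12.5 libraries themselves. Meioc, which stabilises meiotic transcripts, had 14.49 and 3.58 CPM, against 0.169 and 0 CPM in E10.5 Tet1-WT (edgeR adjusted p = 0.0026), with the same library high. Gm4969, known as Meiosin, the partner of STRA8, had 2.42 and 2.05 CPM at E12.5 and no count in E10.5 Tet1-WT, at least 13.5-fold higher. The MF1 cross held 2.01 and 1.05 CPM of it and the difference from E12.5 did not pass (edgeR adjusted p = 0.602). Zglp1, a GATA-like factor downstream of BMP in oogenesis, had 94.3 and 76.5 CPM, against 2.54 and 1.03 CPM in E10.5 Tet1-WT (5.58 ± 0.43, edgeR adjusted p = 8.97e-07). The MF1 libraries differed between themselves in Zglp1, at 1.92 and 27.8 CPM. Crabp1, Crabp2 and Stra6, which bind or take up retinoids, were among the falls. The receptors and enzymes tested, Rara, Rarb, Rarg, Rxra, Rxrb, Cyp26a1, Cyp26b1 and Aldh1a1 to Aldh1a3, were not called.

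Of 16 oocyte genes tested, Sohlh2, Taf4b and Ooep rose (18.8%, against 8.81% over all genes) and Kitl fell. The median log2 fold change was 1.36, or 0.73 with the 2 members at 0 in a group set to their bound, and it was 0.20 without E12.5 replicate 2. Against the MF1 cross 3 rose and none fell, and Sohlh2 was the 1 gene called in both. Sohlh2, a helix-loop-helix factor of early oocytes, had 290 and 315 CPM in E12.5 female Tet1-WT, against 7.91 and 17.7 CPM in E10.5 Tet1-WT (log2 fold change 4.56 ± 0.36), and rose by 2.14 against the MF1 cross. Figla, which drives the zona pellucida genes, had 1.53 and 0.736 CPM at E12.5 and 0.395 and 0 CPM in E10.5 Tet1-WT, and did not pass (edgeR adjusted p = 0.174). Among 23 genes of the BMP and WNT response, Gata2 rose and Id2 fell (4.35% each, below the 8.81% and 4.83% over all genes). Against the MF1 cross 5 rose, Gata2 among them, and none fell. Gata2, a BMP-induced factor in female germ cells, had 134 and 115 CPM in E12.5 female Tet1-WT, against 17.9 and 19.5 CPM in E10.5 Tet1-WT (2.73 ± 0.41, edgeR adjusted p = 0.000447), and rose by 2.20 against the MF1 cross. Id1, a direct BMP target, had 135 and 39 CPM at E12.5 and 139 and 135 CPM in E10.5 Tet1-WT and was not called. Id2 reversed with the MF1 cross (1.44 instead of -1.21) and was no longer called when any 1 of the 4 libraries was dropped (edgeR adjusted p between 0.108 and 0.194).

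**Figure D3:**
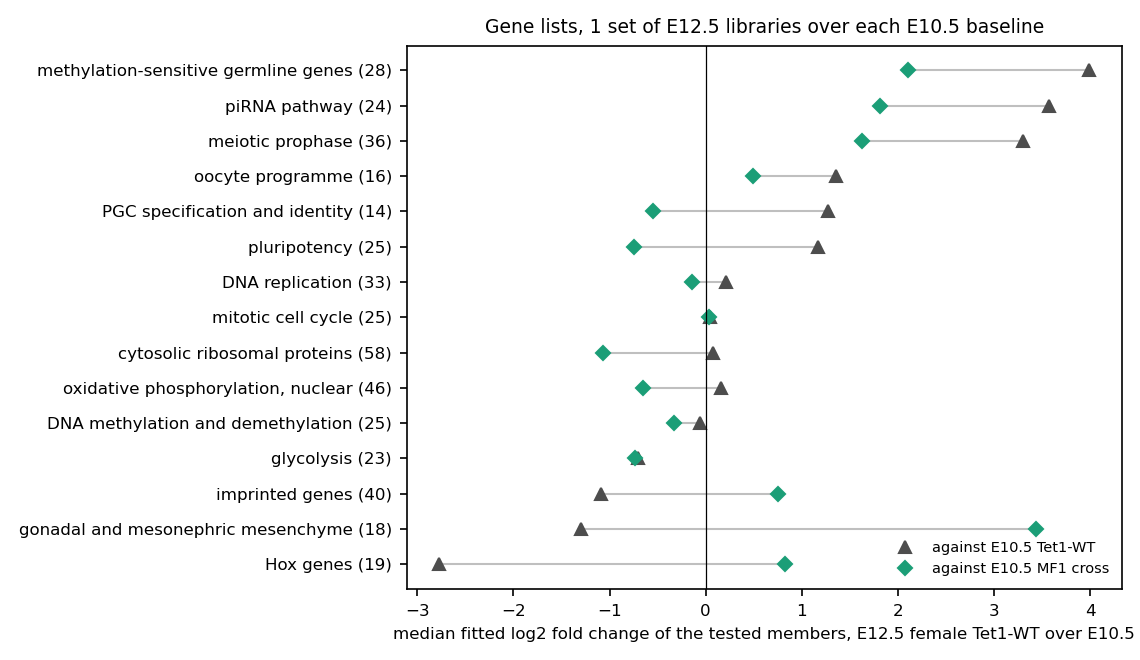
Median fitted log2 fold change of the tested members of 15 gene lists, E12.5 female Tet1-WT over E10.5 Tet1-WT (triangles) and over the E10.5 MF1 cross (diamonds), with the number of members in brackets. The germline, piRNA and meiotic lists lie right of 0 with both, glycolysis (-0.70 and -0.73) and DNA methylation genes (-0.06 and -0.32) lie left of 0 with both, and germ cell identity, pluripotency, DNA replication, ribosomal proteins, oxidative phosphorylation, imprinted genes, mesenchyme markers and Hox genes change side.

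Pluripotency and germ cell identity genes were higher at E12.5 than in E10.5 Tet1-WT, and the direction turned with the other E10.5 group. The shares called higher against E10.5 Tet1-WT were 44% and 64.3%, beside 8.81% over all genes. Of 25 pluripotency genes tested, 11 rose and 2 fell against E10.5 Tet1-WT (median 1.17; 7 to 13 rises without 1 library, the fewest without E10.5 replicate 2), while 2 rose and 9 fell against the MF1 cross (median -0.75). Of 14 germ cell identity genes, 9 rose and none fell against E10.5 Tet1-WT (5 without E10.5 replicate 2 and 7 without each of the others in turn), while 2 rose and 4 fell against the MF1 cross. The 2 that rose in both were Dazl and Ddx4. With the mesenchyme covariate 6 pluripotency genes (median 0.38) and 4 germ cell identity genes rose. Nanog, of the core pluripotency network, had 144 and 106 CPM in E12.5 female Tet1-WT, 58.7 and 34.2 CPM in E10.5 Tet1-WT and 326 and 232 CPM in the MF1 cross. Its change was 1.43 ± 0.38 against E10.5 Tet1-WT (edgeR adjusted p = 0.0204) and -1.18 against the MF1 cross (edgeR adjusted p = 0.0441). Nanog and Sox2, another core factor, each lost the call without either of 2 libraries, with edgeR adjusted p up to 0.18 without E10.5 replicate 2 for Nanog and up to 0.138 without E12.5 replicate 2 for Sox2. Pou5f1, whose regulatory sequences drive the reporter, had 114 and 98.6 CPM in E12.5 female Tet1-WT and 81.6 and 40.9 CPM in E10.5 Tet1-WT, and did not pass (edgeR adjusted p = 0.0783). It was lower than in the MF1 cross, at 370 and 318 CPM (-1.72, edgeR adjusted p = 0.000963). Dppa3, known as Stella, had 2363 and 3543 CPM in E12.5 female Tet1-WT, 844 and 732 CPM in E10.5 Tet1-WT (1.91 ± 0.26, edgeR adjusted p = 0.000243) and 2662 and 4659 CPM in the MF1 cross (-0.33, edgeR adjusted p = 0.459).

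Among the specification factors, Prdm14, a transcriptional regulator of early PGCs, had 60.1 and 68.5 CPM in E12.5 female Tet1-WT, 14.3 and 18.2 CPM in E10.5 Tet1-WT (1.98 ± 0.39, edgeR adjusted p = 0.00343) and 117 and 72.8 CPM in the MF1 cross. Prdm1, which represses the somatic programme in early PGCs, had 85.5 and 80 CPM, against 46.8 and 30.2 CPM in E10.5 Tet1-WT (1.10 ± 0.35, edgeR adjusted p = 0.0474). Nanos3, an RNA regulator that protects migrating PGCs, had 22 and 30.5 CPM, against 14.7 and 11.1 CPM in E10.5 Tet1-WT (1.02 ± 0.32, edgeR adjusted p = 0.0466). Dropping any 1 of the 4 libraries ended the calls of Prdm1 and Nanos3, with the largest adjusted p at 0.285 for Prdm1 without E10.5 replicate 2 and 0.287 for Nanos3 without E12.5 replicate 2. Tfap2c, the third of the specification trio with Prdm1 and Prdm14, had 68.7 and 47.3 CPM in E12.5 female Tet1-WT and 35.5 and 32.1 CPM in E10.5 Tet1-WT and was not called (edgeR adjusted p = 0.203). Kit, the receptor for the survival and migration signal Kitl, had 512 and 650 CPM in E12.5 female Tet1-WT, 234 and 173 CPM in E10.5 Tet1-WT (1.51 ± 0.39, edgeR adjusted p = 0.0181) and 1264 and 366 CPM in the MF1 cross. Its call was lost without 3 of the 4 libraries, E12.5 replicate 2 and either E10.5 replicate (edgeR adjusted p up to 0.144 without E10.5 replicate 2). Dppa2 and Dppa4, paired chromatin factors that keep bivalent promoters poised, rose by 2.61 ± 0.26 and 2.47 ± 0.26 against E10.5 Tet1-WT, and neither differed past the threshold from the MF1 cross (0.69 and -0.06).

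**Figure D4:**
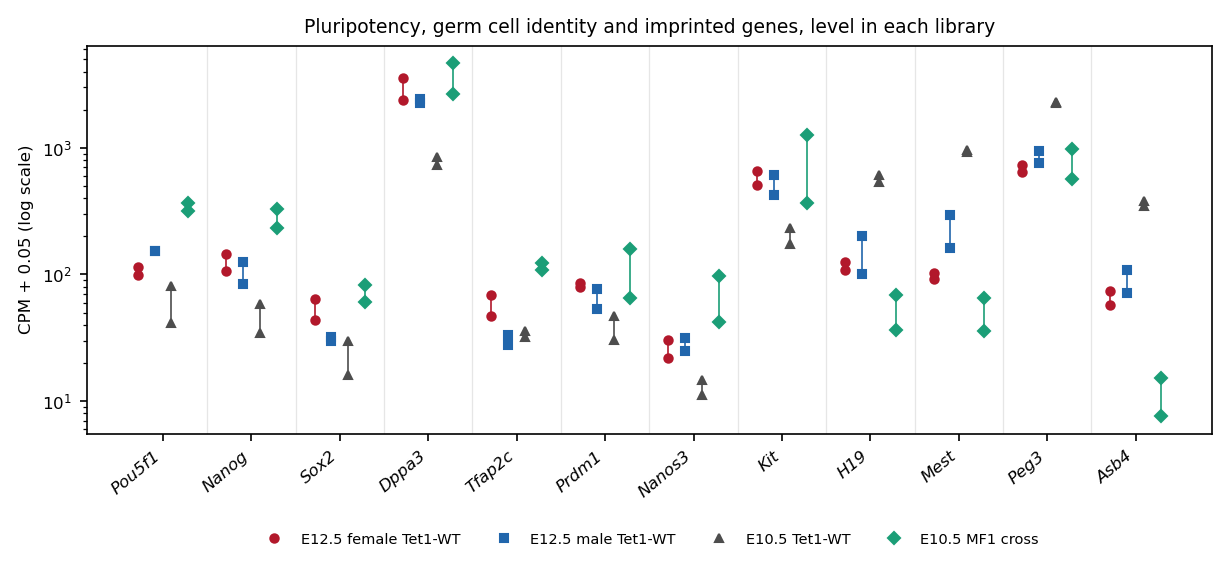
Level of 12 pluripotency, germ cell identity and imprinted genes in each library (CPM + 0.05, log axis), 2 points per group joined by a line. E10.5 Tet1-WT is the lowest group for Dppa3 (844 and 732 CPM) and the highest for Peg3, Mest, H19 and Asb4, while the MF1 cross is high for Pou5f1 and Nanog.

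Imprinted genes, which are expressed from 1 parental copy and lose their imprints in PGCs, were lower at E12.5 than in E10.5 Tet1-WT. Of 40 tested, 14 fell (35%) and 3 rose (7.5%), beside 4.83% and 8.81% over all genes. The median was -1.09, or -0.88 with 1 member at 0 in a group set to its bound. But with the MF1 cross 1 fell and 11 rose (median 0.76). H19 had 125 and 109 CPM in E12.5 female Tet1-WT, 540 and 613 CPM in E10.5 Tet1-WT (-2.30 ± 0.31, edgeR adjusted p = 0.000219) and 36.6 and 68.6 CPM in the MF1 cross (1.13, edgeR adjusted p = 0.034). Mest had 103 and 92.4 CPM, against 923 and 955 CPM in E10.5 Tet1-WT and 65.1 and 35.7 CPM in the MF1 cross. Peg3 had 729 and 639 CPM, against 2310 and 2276 CPM in E10.5 Tet1-WT and 975 and 571 CPM in the MF1 cross. The sum over the list was 2595 and 3142 CPM in E12.5 female Tet1-WT and 7625 and 7385 CPM in E10.5 Tet1-WT. In E12.5 male Tet1-WT it was 3723 and 2533 CPM, where the mesenchyme sum was 2668 and 1778 CPM. With the mesenchyme sum as a covariate 4 imprinted genes fell and none rose (median -0.81). Dcn stands in both lists, and a link between the sums was not tested. Of the 18 mesenchyme markers, 3 were called lower (Prrx1, Meis1 and Col3a1; 10 with limma voom) and none higher against E10.5 Tet1-WT, and 1 was lower and 11 higher against the MF1 cross. The 3 rises among imprinted genes were Slc22a18, Usp29 and Phlda2. Usp29, next to Peg3, had 15.3 and 12.4 CPM in E12.5 female Tet1-WT, against 1.41 and 2.38 CPM in E10.5 Tet1-WT (2.86 ± 0.46).

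Other cell types were checked by their markers, beside shares over all genes of 8.81% higher and 4.83% lower against E10.5 Tet1-WT. Of 19 Hox genes tested 1 fell (5.26%, and 13 genes with limma voom). The sum of 20 was 56.9 and 80.7 CPM in E12.5 female Tet1-WT and 286 and 388 CPM in E10.5 Tet1-WT. The MF1 cross held 20.3 and 44.15 CPM of them, below E12.5, and no Hox gene was called with it. Of 16 gonadal supporting cell markers 1 fell against E10.5 Tet1-WT, and none fell and 2 rose against the MF1 cross. Their sum was 68.7 and 83.2 CPM in E12.5 female Tet1-WT, 239 and 177 CPM in E10.5 Tet1-WT and 48.3 and 42.3 CPM in the MF1 cross, with Sry, Dhh and Foxl2 too low to test. Of 10 erythroid markers 1 fell, and the sums were 161 and 76.4 CPM in E12.5 female Tet1-WT, 137 and 1853 CPM in E10.5 Tet1-WT and 424 and 1023 CPM in the MF1 cross. In E10.5 Tet1-WT, 1 library thus held most of the erythroid RNA. Hbb-bh1, an embryonic globin, had 0.589 and 0 CPM at E12.5 and 27.1 and 368 CPM in E10.5 Tet1-WT, and globin copies can share reads. Of 10 coelomic epithelium and 7 hindgut epithelium markers, Krt8 and Krt18, which stand in both lists, fell, and Cldn6 rose among the hindgut markers. Against the MF1 cross 4 coelomic epithelium markers rose and no hindgut marker was called. Of 7 steroidogenic markers none was called. Of 13 endothelial and blood markers Cx3cr1 rose, and of 9 neural markers Tubb3 fell.

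Genes of glycolysis were lower at E12.5 with both E10.5 groups. Of 23 genes tested, 10 fell and none rose against E10.5 Tet1-WT (43.5%, against 4.83% over all genes; 7 to 8 without 1 library and 5 with the mesenchyme covariate). Against the MF1 cross 10 fell and none rose, 7 of them among the first 10. The median was -0.70 against E10.5 Tet1-WT, and the summed level was 7049 and 7057 CPM in E12.5 female Tet1-WT, 12982 and 11365 CPM in E10.5 Tet1-WT and 16813 and 13243 CPM in the MF1 cross. Ldha, which turns pyruvate into lactate, had 215 and 228 CPM in E12.5 female Tet1-WT, against 942 and 812 CPM in E10.5 Tet1-WT (-1.99 ± 0.22, edgeR adjusted p = 3.42e-05) and 631 and 682 CPM in the MF1 cross (-1.59). Eno1, an enolase, had 869 and 824 CPM, against 2646 and 2035 CPM in E10.5 Tet1-WT (-1.47 ± 0.21). Gapdh had 762 and 374 CPM, against 1529 and 1565 CPM in E10.5 Tet1-WT (-1.45 ± 0.25). Slc2a1, the main glucose transporter, had 43.1 and 26.4 CPM, against 91.6 and 108 CPM in E10.5 Tet1-WT (-1.52 ± 0.23). Tpi1 had 96.7 and 111 CPM, against 298 and 243 CPM in E10.5 Tet1-WT, and did not pass against the MF1 cross (edgeR adjusted p = 0.0589). Pgam1, Pgk1 and Pkm fell with both E10.5 groups, and Pfkl and Hk2 were called with E10.5 Tet1-WT but not with the MF1 cross. Of 46 nuclear genes of oxidative phosphorylation, 5 rose (10.9%) and 1 fell (2.17%) against E10.5 Tet1-WT, beside 8.81% and 4.83% over all genes. None rose and 11 fell against the MF1 cross, beside 10.1% higher and 7.91% lower over all genes. Of 58 cytosolic ribosomal protein genes, 2 rose (3.45%) and none fell against E10.5 Tet1-WT, while 47 fell against the MF1 cross. In that cross 1 library held 160180 CPM of them and the other 79651 CPM. The E12.5 female Tet1-WT libraries also differed, at 68840 and 49483 CPM. Against E10.5 Tet1-WT the median log2 fold change was 0.08, but -0.29 without E12.5 replicate 1 and 0.30 without E12.5 replicate 2.

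**Figure D5:**
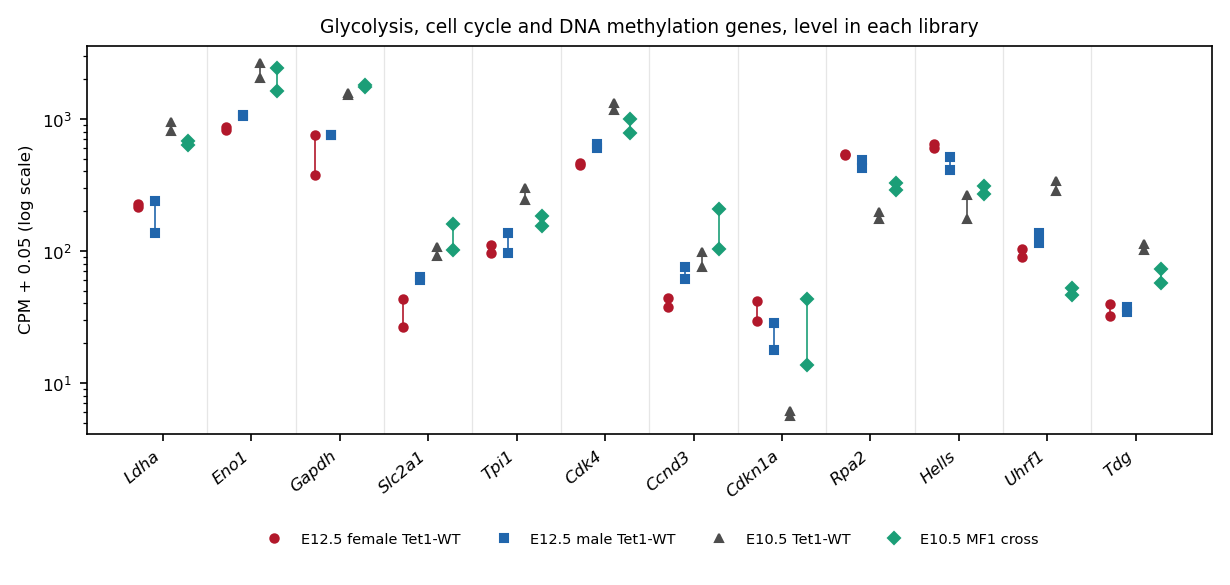
Level of 12 genes of glycolysis, the cell cycle and DNA methylation in each library (CPM + 0.05, log axis), 2 points per group joined by a line. For Ldha, Gapdh, Slc2a1 and Cdk4 the E12.5 female libraries lie below both E10.5 groups, and for Rpa2 and Hells above both.

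Calls among cell cycle genes depended on the libraries used. Of 33 replication genes 8 rose (24.2%, against 8.81% over all genes) and 1 fell, with a median of 0.22. The rises were 2 to 5 without 1 library, the fewest without E10.5 replicate 1, and 1 with the mesenchyme covariate. Against the MF1 cross 2 replication genes rose and 5 fell (median -0.14). Of 25 mitotic genes 4 rose (16%) and 2 fell, with a median of 0.05. The rises were 1 to 3 without 1 library and 2 with the MF1 cross, and no mitotic gene was called with the mesenchyme covariate. Cdk4, the kinase of G1 progression, had 467 and 445 CPM in E12.5 female Tet1-WT, against 1165 and 1316 CPM in E10.5 Tet1-WT (-1.44 ± 0.14, edgeR adjusted p = 1.16e-05) and 789 and 1001 CPM in the MF1 cross (-0.996, edgeR adjusted p = 0.00102). Its D-type cyclin partners Ccnd1, Ccnd2 and Ccnd3 were all called lower against E10.5 Tet1-WT. Of these only Ccnd3 was also called lower against the MF1 cross. Ccnd3 had 43.8 and 37.4 CPM, against 97.3 and 76.1 CPM in E10.5 Tet1-WT (-1.10 ± 0.24, edgeR adjusted p = 0.00732) and was lower than in the MF1 cross too (-1.96). Its call against E10.5 Tet1-WT was lost without E12.5 replicate 2 (edgeR adjusted p = 0.0628) or without E10.5 replicate 1 (edgeR adjusted p = 0.0681). Ccnd2 fell against E10.5 Tet1-WT (-1.95 ± 0.47, edgeR adjusted p = 0.0121, and 0.095 without E12.5 replicate 1) and was higher than in the MF1 cross (1.44). Cdkn1a, the inhibitor p21, had 29.3 and 41.8 CPM at E12.5, 5.54 and 6.1 CPM in E10.5 Tet1-WT (2.61 ± 0.30) and 13.7 and 43.1 CPM in the MF1 cross. Rpa2, a subunit of the single-strand DNA binding complex, had 531 and 541 CPM, against 176 and 198 CPM in E10.5 Tet1-WT (1.52 ± 0.15, edgeR adjusted p = 1.38e-05) and rose against the MF1 cross as well (0.78).

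The DNA methylation machinery was mostly not called. Of 25 genes tested 1 rose (4%) and 3 fell (12%), beside 8.81% and 4.83% over all genes, and 3 rose and 4 fell with the MF1 cross. Hells, a remodeller needed for DNA methylation at repeats, had 641 and 606 CPM in E12.5 female Tet1-WT, against 175 and 264 CPM in E10.5 Tet1-WT (1.51 ± 0.21, edgeR adjusted p = 0.000218) and 269 and 310 CPM in the MF1 cross (1.08). Tdg, a glycosylase that removes oxidised methylcytosine, had 31.9 and 39.5 CPM, against 102 and 112 CPM in E10.5 Tet1-WT (-1.58 ± 0.25) and 72.5 and 57.2 CPM in the MF1 cross (-0.89, edgeR adjusted p = 0.0268). Uhrf1, which guides the maintenance methyltransferase to replicated DNA, had 104 and 90 CPM, against 284 and 340 CPM in E10.5 Tet1-WT (-1.69 ± 0.29, edgeR adjusted p = 0.00137) but 52 and 46.4 CPM in the MF1 cross (0.95, edgeR adjusted p = 0.0359). The fall of Uhrf1 thus turned into a rise with the other E10.5 group. Dnmt3a, a de novo methyltransferase, fell as well (-1.26 ± 0.38, edgeR adjusted p = 0.0361), which no longer passed when any 1 of the 4 libraries was dropped (edgeR adjusted p between 0.0971 and 0.176).

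X-linked genes rose more often than autosomal genes. Of 607 tested protein-coding genes on the X chromosome, 108 rose (17.8%) and 48 fell (7.91%), against 1344 (9.32%) and 774 (5.37%) of 14414 on the autosomes. With the MF1 cross as the E10.5 group, 117 X-linked genes rose (19.3%), against 10.6% of autosomal genes. This difference in shares has no test, because genes are not replicates. In females, 1 X chromosome is reactivated in PGCs around these stages, but the E10.5 pools were not separated by sex. Sex-linked RNA differed in part between the E10.5 groups. Y-linked Eif2s3y had 28.6 and 49 CPM in E10.5 Tet1-WT, 139 and 161 CPM in the MF1 cross and 169 and 166 CPM in E12.5 males. Y-linked Ddx3y overlapped, at 37.6 and 67.1 CPM in E10.5 Tet1-WT and 44.6 and 57.7 CPM in the MF1 cross. X reactivation and sex composition cannot be told apart here. Between the sexes at E12.5, the median log2 difference, female minus male, was 0.27 for X-linked and -0.02 for autosomal genes. Xist, the RNA that coats the inactive X, had 20 and 30.3 CPM in E12.5 female Tet1-WT, 70.2 and 75.5 CPM in E10.5 Tet1-WT (edgeR adjusted p = 0.218) and 1.67 and 10.6 CPM in the MF1 cross. Usp26, an X-linked germ cell gene, had 21.1 and 10.6 CPM, against 0.113 and 0.054 CPM in E10.5 Tet1-WT (7.45 ± 0.56, edgeR adjusted p = 1.03e-06). The MF1 cross held 7.12 and 1.06 CPM of Usp26. Of 8 Y-linked protein-coding genes tested, 5 fell.

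Few genes were called between ovary and testis at E12.5. E12.5 female Tet1-WT against E12.5 male Tet1-WT gave 101 called genes (0.575%), 58 higher in females (0.33%) and 43 lower (0.245%). Of the 58, 19 were X-linked. The count was 374 without female replicate 1, 44 without female replicate 2, 23 without male replicate 1 and 27 without male replicate 2. Stra8 had 31.3 and 6.94 CPM in females and 0.726 and 0 CPM in males (edgeR adjusted p = 0.00856). Zglp1 had 94.3 and 76.5 CPM in females and 14.2 and 18 CPM in males (2.41 ± 0.36, edgeR adjusted p = 0.0052). Smc1b had 455 and 461 CPM in females and 170 and 216 CPM in males (edgeR adjusted p = 0.0349). The calls of Zglp1 and Smc1b were lost without male replicate 1 (edgeR adjusted p = 0.135 and 0.343) and without male replicate 2 (0.0548 and 0.132), that of Smc1b also without female replicate 2 (0.138), and that of Stra8 without male replicate 2 (0.119). Dazl, with 1050 and 1404 CPM in males, Ddx4, with 408 and 562 CPM, and Tex19.1, with 371 and 452 CPM, were not called between the sexes, which does not show that they were equal.

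The same stage difference was also set against that of Tet1-KO cells. The change between E10.5 and E12.5 females differed between Tet1-KO and Tet1-WT for 52 genes (0.296%), 28 with a more positive change in Tet1-KO (0.159%) and 24 with a more negative one (0.137%). Tet1 itself had 53.1 and 68.9 CPM in E12.5 female Tet1-KO and 179 and 226 CPM in E12.5 female Tet1-WT. The E10.5 groups overlapped, since the Tet1-KO libraries held 44.5 and 102 CPM and the Tet1-WT libraries 134 and 76.8 CPM. Which part of the gene the Tet1-KO lacks is not given in the sources used here, so the Tet1 counts do not check the label.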

How the data were processed

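Sorted PGCs were profiled by RNA-seq of polyA RNA amplified with the SMARTer Ultra Low Input kit, per the labels' protocols. The deposited values are raw read counts per gene. Per the submitters' processing notes, the tools were Trimmomatic, TopHat2 2.0.2, Bowtie 0.12.8 and HTSeq 0.5.3p9 and the genome build was mm9. The strand setting is not given in the sources used here, so reads of a gene and an antisense partner cannot be told apart. Gene symbols, types and chromosomes came from GENCODE by Ensembl identifier (32919 of 37991 genes). 17 list entries had no match and were left out of the list counts. Iho1 was among them and is reported by its older name, Ccdc36, outside those counts.

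Counts were analysed with edgeR 4.0.16 in R 4.3.3 (limma 3.58.1 and DESeq2 1.42.0 as alternatives). Genes were kept by filterByExpr (minimum count 10, minimum total 15), TMM set the library scale, and a robust quasi-likelihood model held 10 group coefficients for 20 libraries, with 10 residual degrees of freedom and a prior count of 0.125. The common biological coefficient of variation was 0.46. All p-values of genes are from edgeR's quasi-likelihood test, 2-sided, adjusted by Benjamini-Hochberg. An SE is the size of the log2 fold change over the square root of F. CPM use TMM-scaled totals. A fold against a group with no count uses 3 counts per library and covers counting error only, since amplified reads are not independent molecules. The fit with the MF1 cross held 22 libraries and 18008 genes. Nothing states that replicates are separate litters, so p-values measure the spread between pools, which may be technical in part.

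The members, gene lists and tests were chosen with earlier results of these data known. Named genes were Tet1, the 10 largest called rises and falls with a group mean of at least 10 CPM, the 6 largest differences in level, up to 5 called members of each list and a set of fixed germ cell genes; the text gives part of them. The test was checked on simulated counts, with 100 genes changed 2-fold and 100 changed 4-fold. There edgeR recovered 21% of the 2-fold and 71% of the 4-fold changes, and 4.2% of its calls were false. A gene that was not called can therefore still have changed. False calls made up 19.2% with DESeq2 and 19.4% with limma voom, so a larger count with these tools is not stronger evidence. Alternatives covered scaling, tool, filter, the samples in the fit, a mesenchyme covariate, the replicate number and leaving out each library. Some genes that the rule names are not reported here.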

Additional observations from a re-analysis of the deposited data

Results flagged for a closer look

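The change between E10.5 and E12.5 females differed between Tet1-KO and Tet1-WT for 52 genes (edgeR interaction test, adjusted p under 0.05), 28 higher and 24 lower in Tet1-KO. Differences below are log2, the change in Tet1-KO minus that in Tet1-WT. Among germline and meiotic genes they were -2.28 for Sycp3, -2.14 for Tuba3a, -2.34 for Smc1b, -1.44 for Stag3, -1.89 for Hormad2 and -3.61 for Tdrd7. For Sycp3, E12.5 females held 39.8 and 37.6 CPM in Tet1-KO and 79.7 and 56.3 CPM in Tet1-WT, and E10.5 held 6.65 and 5.64 CPM in Tet1-KO and 2.32 and 2.11 CPM in Tet1-WT. Each of these 6 genes was higher in both E10.5 Tet1-KO libraries than in both E10.5 Tet1-WT libraries. The E10.5 Tet1-KO pools also held more germ cell identity RNA, so genotype and pool makeup cannot be told apart. Nmt2, an N-myristoyltransferase, differed by -1.89, Trib3 by -6.74, Tuba3b by -7.63, Cfap52 by -10.74 and Lrp8os2 by 11.27. The values of Tuba3b, Cfap52 and Lrp8os2 are fitted against a group with 0 counts, depend on the prior count and are no bounds. The count was 223 and 298 without E10.5 Tet1-KO replicate 1 and 2, 231 and 7 without E12.5 female Tet1-WT replicate 1 and 2, and 1 and 4 without either E12.5 female Tet1-KO library. None of the 11 genes named here passed without 1 of the E12.5 female Tet1-KO libraries, and without the other only Stag3 did (edgeR adjusted p = 0.0321).

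Between E12.5 females and males of Tet1-WT, 101 genes differed (edgeR, adjusted p under 0.05). The female minus male differences (log2) were 1.25 for Smc1b, 1.63 for Hormad2, 2.41 for Zglp1, 5.67 for Stra8 and 2.01 for Phf19, a PRC2 accessory protein with 145 and 109 CPM in females and 23.8 and 39.2 CPM in males. Xist differed by 8.51. The Y-linked genes differed by -13.37 for Ddx3y, -12.22 for Eif2s3y, -8.36 for Uty, -11.88 for Kdm5d and -14.32 for Uba1y. The calls of Xist (edgeR adjusted p = 0.129), Phf19 (0.204), Zglp1 (0.135) and Smc1b (0.343) were lost without male replicate 1, and those of Xist and Zglp1 (both 0.0548), Stra8 (0.119) and Smc1b (0.132) without male replicate 2. Groups at 0 counts make the fitted values of Ddx3y, Kdm5d and Uba1y depend on the prior count.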

How the results depend on the processing

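The 2396 calls became 587 with the mesenchyme marker sum as a covariate and 1269 to 1911 without 1 library (lowest without E10.5 replicate 2). The 1547 higher calls became 792 in the 4 libraries alone, 423 with the covariate and 897 to 1181 without 1 library. The 849 lower calls became 1512 with DESeq2, 164 with the covariate, 1425 with the MF1 cross and 372 to 730 without 1 library. Of all calls 64.6% were higher, against 54.1% with limma voom and 46.5% in the 4 libraries alone. The 101 female against male calls became 612 with DESeq2, 583 without a count filter and 23 to 374 without 1 library. The 52 interaction calls became 409 with DESeq2, 609 without a count filter and 1 to 298 without 1 library. The replicate number as a block, in the 10 Tet1-WT libraries (chosen after seeing the data), gave 2059 calls in the stage comparison and 40 between the sexes. Same-numbered libraries did not deviate together (correlations -0.0275 to 0.0168, over genes that are not independent). No pairing by number was seen, which does not exclude one. The planned block over 20 libraries was not run, because the Tet1-KO columns at E12.5 carry no own number. The cause of these moves was not tested.

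Direction turned only with the MF1 cross as the E10.5 group, among the named genes and settings run. Log2 changes there were -0.083 for Tet1, -1.72 for Pou5f1, -0.43 for Sox2, -1.18 for Nanog, -0.33 for Dppa3, -0.0634 for Dppa4, -0.76 for Dppa5a, -0.26 for Tcl1, -0.59 for Zfp42, -0.45 for Prdm1, -0.58 for Prdm14, -1.02 for Tfap2c, -1.44 for Nanos3, -0.51 for Kit, -0.43 for Epcam and -0.55 for Phf19. They were 1.20 for Cdh2, 0.10 for Kitl, 1.44 for Id2, 0.43 for Id1, 0.95 for Uhrf1, 0.80 for Dnmt3a, 1.13 for H19, 0.93 for Mest, 2.50 for Asb4, 1.44 for Ccnd2, 2.01 for Xist and 3.50 for Kdm6b.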

Other observations

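Genes that stood outside the lists were among the largest changes. Ccdc172 had 19 and 18 CPM in E12.5 female Tet1-WT, 0 and 0.27 CPM in E10.5 Tet1-WT (edgeR adjusted p = 4.55e-05) and 0 and 0.055 CPM in the MF1 cross. Trib3, a stress-induced pseudokinase, had 15 and 8.04 CPM, against 0 and 0.054 CPM in E10.5 Tet1-WT (edgeR adjusted p = 9.48e-06). It was not near 0 in the other E10.5 groups, at 2.97 and 2.31 CPM in the MF1 cross and 3.43 and 5.31 CPM in E10.5 Tet1-KO. Nmt2 had 1520 and 3661 CPM, against 441 and 470 CPM in E10.5 Tet1-WT (log2 fold change 2.51 ± 0.28), and rose by 1.33 against the MF1 cross. Wapl, which releases cohesin from chromosomes, had 684 and 1763 CPM, against 433 and 467 CPM in E10.5 Tet1-WT (1.44 ± 0.30), and its call was lost without E12.5 replicate 2 (0.59, edgeR adjusted p = 0.0875). Mab21l1 and Wnt2 were among the largest falls, with 0 and 0 CPM and 0.177 and 0 CPM in E12.5 female Tet1-WT, against 4.52 and 29.9 CPM and 16.9 and 17.7 CPM in E10.5 Tet1-WT. The MF1 cross held no count of Mab21l1 and 0 and 2.29 CPM of Wnt2, and both calls were lost without 1 library (edgeR adjusted p up to 0.0599 and 0.0568).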
